A study of Mus musculus with 6 samples.

Results

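The genes Cyp2j5, Cyp2j6, Cyp2j9 and Cyp2u1, which encode cytochrome P450 enzymes that oxidise fatty acids, and Ephx1 and Ephx2, which encode epoxide hydrolases, were described in male and female mouse liver. They were chosen by gene symbol, under a rule that sets no limit on a measured value but was written with earlier results of these data known, and all 6 were found among the 24197 genes of the table, each on 1 row. RNA of whole liver came from intact CD-1 mice, an outbred stock from Charles River: 3 pools of 17 male livers each, from mice of 7 to 9 weeks, and 3 pools of 12 female livers each, from mice of 7 to 11 weeks. Poly-A selected, strand-specific libraries were sequenced from the 6 pools. The labels name no agent or altered allele in either group. Sex, pool size and the upper age limit change together and cannot be told apart. Levels are given as FPKM, read fragments per kilobase of counted sequence and per unit of sequencing depth. The authors averaged them over the pools of each sex, for gene bodies and separately for introns. Values of single pools were not used, these averages therefore have no SD, and the authors' adjusted p-value is the only measure of replicate error behind each ratio. Nothing in the labels says that the pools were drawn from separate litters or cages, and a pool hides the spread between animals.

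P450 epoxygenases add an oxygen atom across a double bond of arachidonic acid and related fatty acids and so form epoxyeicosatrienoic acids, lipid mediators with effects on vessel tone, kidney salt handling and inflammation. Soluble epoxide hydrolase, the product of Ephx2, opens these epoxides to diols, and microsomal epoxide hydrolase, the product of Ephx1, opens epoxides of drugs and pollutants and, more slowly, those of fatty acids. Cyp2j5 is known in mouse as an abundant epoxygenase of liver and kidney, and in mouse kidney as a gene under androgen control. Cyp2j6 is known from mouse intestine, and Cyp2j9, known from mouse brain, makes mainly a hydroxylated product of arachidonic acid. The human enzyme CYP2U1 is known to hydroxylate long-chain fatty acids near their end, so the name epoxygenase covers the 4 P450 genes only in part. RNA levels do not measure any of these activities.

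The coding segments around the heme-binding cysteine are shown because they tell how close the 4 P450 genes are, and so how well reads can be told apart. Each run is 30 bases of the coding strand from GENCODE M21 transcripts (build GRCm38), with the cysteine codon in capitals.
Cyp2j5: ttctcaatgggaaaaagagctTGTcttgga
Cyp2j6: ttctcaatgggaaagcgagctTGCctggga
Cyp2j9: ttctcaatgggaaaacgtgctTGTcttgga
Cyp2u1: tttgggatagggaagcgggtgTGTatggga
Between Cyp2j5 and Cyp2j9 2 of the 30 bases differed, and 4 differed between Cyp2j6 and either of them. From the Cyp2j genes Cyp2u1 differed at 11 to 13 bases. Over the whole coding sequence Cyp2j6 and Cyp2j9 were 83.0% identical in aligned bases, Cyp2j5 and Cyp2j6 78.3%, and Cyp2j5 and Cyp2j9 78.2%, against 57.1% to 59.8% for Cyp2u1 with each Cyp2j gene. Exact 50-base windows shared with transcripts of other genes made up 0.174% of the Cyp2j5 transcript, 0.422% of Cyp2j6, 3.14% of Cyp2u1 (with transcripts of 171 genes) and 1.89% of Ephx1 (with the predicted gene Gm36961), and no window of Cyp2j9 or Ephx2 was shared. At that window length, reads of the 3 Cyp2j members could be assigned almost everywhere along their transcripts. The read length is not given in the sources used here.

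Of the 6 genes, 4 were higher in male liver and none was higher in female liver at an authors' adjusted p under 0.05. Cyp2u1 differed most, at 6.33-fold in the authors' deposited table, followed by Ephx1 at 2.09-fold, Cyp2j9 at 1.92-fold and Ephx2 at 1.63-fold. Cyp2j5, the most abundant of the P450 members in both sexes, and Cyp2j6 did not pass the threshold. Across all 17997 genes with a gene body value above 0 in either sex, 10.0% passed in either direction and 4.61% were higher in male liver. Among genes with a level of 1 FPKM or more, which all 6 exceed, 14.1% passed in either direction. With a further limit of a 2-fold ratio, Cyp2u1 and Ephx1 were higher in male liver, against 1.29% of all genes. The 3 Cyp2j genes are neighbours, so the 6 genes are not independent draws.

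**Figure D1:**
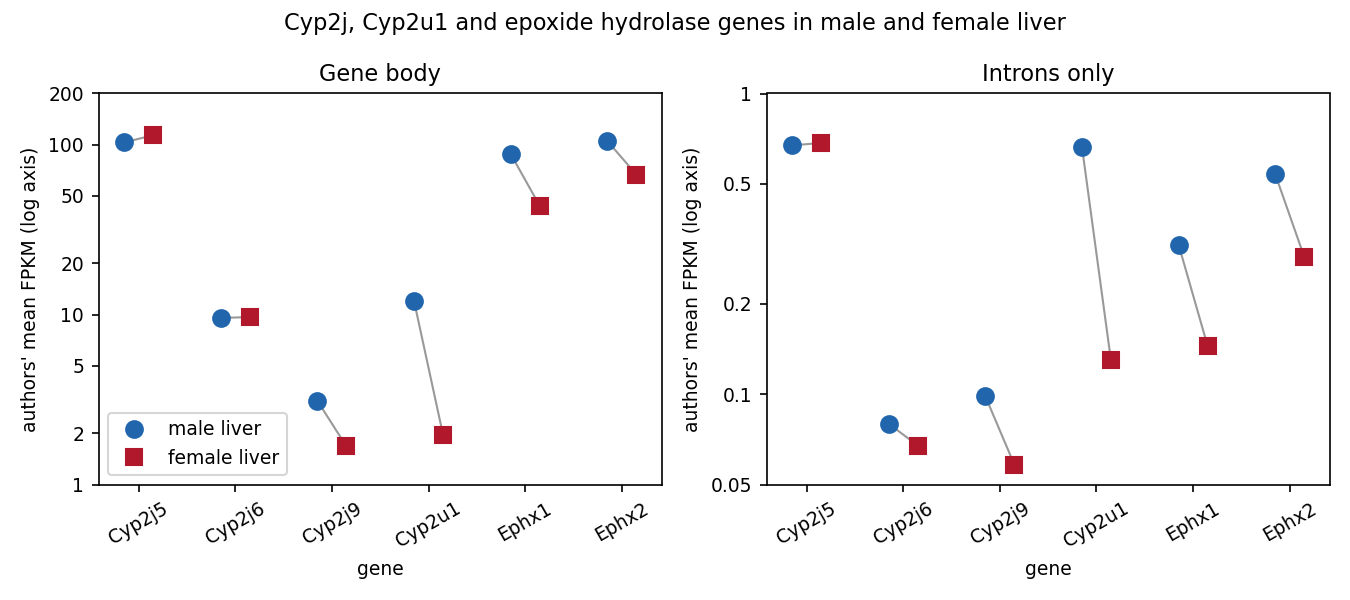
Authors' mean FPKM of each gene on a log axis, in gene bodies (left panel) and in introns (right panel), with males as circles and females as squares joined by a line. The male mean lies above the female mean for Cyp2j9, Cyp2u1, Ephx1 and Ephx2 in both panels, while the pairs of Cyp2j5 and Cyp2j6 are nearly level in gene bodies.

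Cyp2j5 (chromosome 4, 96294123 to 96330810, build mm9, NM_010007) had a mean of 103.2 FPKM in males and 113.6 FPKM in females. The authors' deposited table gave a male over female ratio of 0.943 with an adjusted p of 0.948, so no sex difference was detected. At this level the gene stood above 98.0% of the genes with a value above 0 in male liver and 98.2% in female liver. Among 58 P450 genes of families 1 to 4 whose 2 means average 0.5 FPKM or more, Cyp2j5 ranked 14th in males and 15th in females. About 26338 reads in the male pools and 28710 in the female pools lie behind these means, as estimated from the transcript length. Its intronic mean was 0.672 FPKM in males and 0.685 FPKM in females, and the authors' deposited table listed an adjusted p of 1. The authors' intronic ratio of 1.07 lies on the other side of 1 from the gene body ratio, and neither passed.

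Cyp2j6 (chromosome 4, 96182829 to 96220342, NM_010008) had a mean of 9.55 FPKM in males and 9.67 FPKM in females. The ratio in the authors' deposited table was 1.02, with an adjusted p of 1, although the male mean was the lower of the pair, since the normalized ratio of the authors is not the plain ratio of the means. The means in introns were 0.0797 FPKM in males and 0.0674 FPKM in females, a ratio of 1.30 with an adjusted p of 0.809 in the authors' deposited table. The Cyp2j5 level was 10.8 times that of Cyp2j6 in male liver and 11.7 times in female liver, both values per length.

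Cyp2j9 (chromosome 4, 96235120 to 96258176, NM_028979) lies between those genes and was the least abundant of the 6. Its mean was 3.10 FPKM in males and 1.68 FPKM in females. The authors' deposited table gave a ratio of 1.92 with an adjusted p of 2.56e-09. The means in introns were 0.0983 FPKM in males and 0.0582 FPKM in females, with a ratio of 1.84 and an adjusted p of 0.000649 in the authors' deposited table. Both regions thus passed, with ratios close to each other. An estimated 688 reads in the male pools and 368 in the female pools lie behind the gene body means.

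Within the Cyp2j cluster on chromosome 4 (95709351 to 96330810, 621.5 kb, build mm9) the table lists 7 genes. The members Cyp2j6, Cyp2j9 and Cyp2j5 sit side by side at its high-coordinate end, 14.8 kb and 35.9 kb apart, and all 3 are transcribed toward lower coordinates. The other 4 were near or at 0: Cyp2j8 had 0.0690 FPKM in males and 0.0471 FPKM in females, and Cyp2j11, Cyp2j12 and Cyp2j13 were listed at 0 in gene bodies in both sexes. Cyp2j11 had intronic means of 0.00352 FPKM in males and 0.0108 FPKM in females, with an adjusted p of 0.0298 in the authors' deposited table. These levels are low, and the reads behind them were not estimated. Of these 7 neighbouring genes, Cyp2j9 alone passed the threshold in gene bodies.

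**Figure D2:**
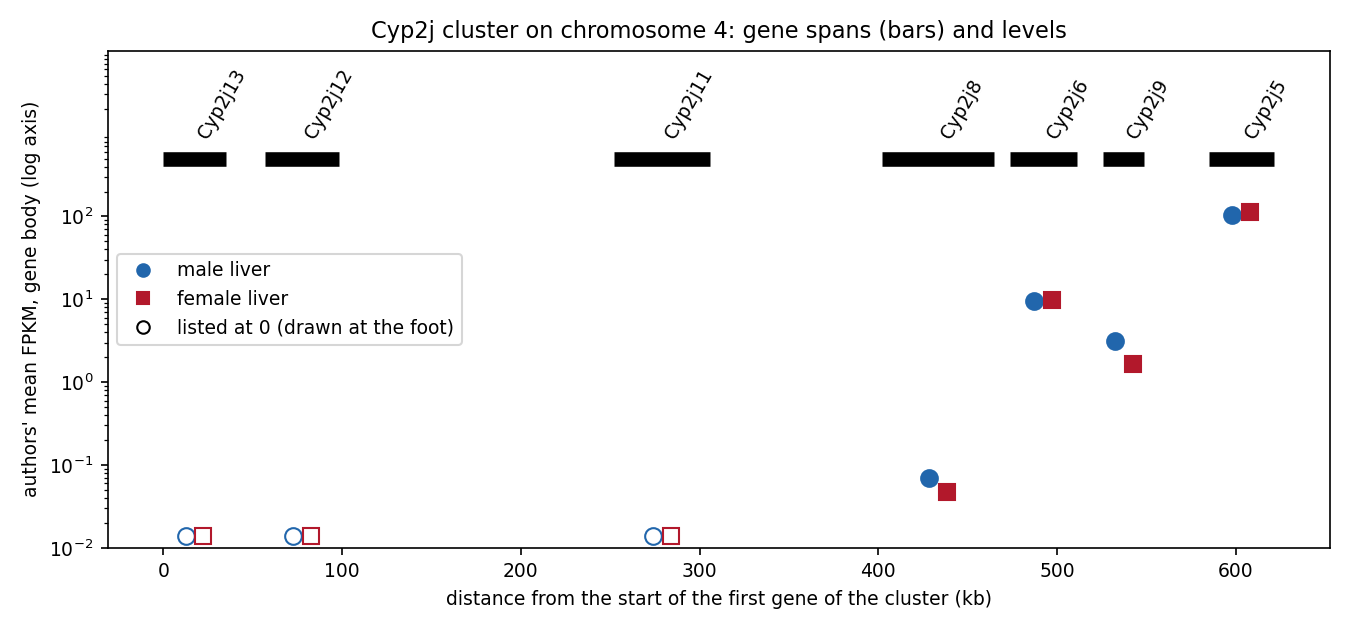
Spans of the 7 listed Cyp2j genes (black bars) by distance in kb from the start of the first, with the authors' gene body mean FPKM on a log axis for male liver (circles) and female liver (squares) at each gene's middle. Open symbols at the foot are genes listed at 0, and the measured levels stand at the right end of the cluster, with a visible gap between the sexes for Cyp2j9 and, at a level under 0.1 FPKM, for Cyp2j8, which did not pass the threshold.

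The promoters of the 3 neighbouring Cyp2j genes are shown because these genes differ in level and in sex ratio, and that of Ephx1 as a member higher in male liver. Each run holds the 250 bases before and 50 bases from the RefSeq start (build GRCm38.p6), on the minus strand, and reads 5′ to 3′ along the gene. Capitals mark matches to any of 7 short motifs searched on both strands.
Cyp2j5, chr4:96664070-96664369: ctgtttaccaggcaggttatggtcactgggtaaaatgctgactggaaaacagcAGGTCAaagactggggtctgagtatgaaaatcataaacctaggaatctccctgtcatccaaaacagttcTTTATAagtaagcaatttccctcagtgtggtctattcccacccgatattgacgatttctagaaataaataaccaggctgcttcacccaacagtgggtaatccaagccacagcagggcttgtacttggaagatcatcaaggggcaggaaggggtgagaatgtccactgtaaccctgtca
Cyp2j6, chr4:96553602-96553901: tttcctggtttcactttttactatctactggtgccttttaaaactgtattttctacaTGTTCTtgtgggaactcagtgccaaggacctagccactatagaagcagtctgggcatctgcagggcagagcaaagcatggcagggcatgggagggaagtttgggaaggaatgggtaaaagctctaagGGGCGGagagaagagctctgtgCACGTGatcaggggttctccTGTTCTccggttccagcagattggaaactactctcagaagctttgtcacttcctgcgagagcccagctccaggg
Cyp2j9, chr4:96591436-96591735: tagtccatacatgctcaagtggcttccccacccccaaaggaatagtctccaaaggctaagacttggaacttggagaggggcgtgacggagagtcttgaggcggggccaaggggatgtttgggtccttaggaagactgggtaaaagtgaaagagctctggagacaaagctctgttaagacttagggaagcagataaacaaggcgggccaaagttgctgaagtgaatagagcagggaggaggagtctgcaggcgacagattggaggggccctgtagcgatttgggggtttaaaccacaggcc
Ephx1, chr1:181017520-181017819: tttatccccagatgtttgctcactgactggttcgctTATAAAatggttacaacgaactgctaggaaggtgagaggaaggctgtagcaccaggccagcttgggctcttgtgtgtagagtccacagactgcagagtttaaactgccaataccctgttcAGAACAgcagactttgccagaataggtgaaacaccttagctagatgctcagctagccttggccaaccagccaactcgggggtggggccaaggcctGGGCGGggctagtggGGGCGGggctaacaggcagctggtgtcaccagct
The letters searched were TTCNNNGAA, the binding pattern of STAT5, TATAAA, the TATA box, GGGCGG, the GC box, CACGTG, an E-box, AGGTCA, an element of nuclear receptors, AGAACA, an element of the androgen and glucocorticoid receptors, and CAAAGTCCA, a pattern bound by HNF4A. Matches did not overlap one another, and positions give the first letter of the match along the run, counted from 1 at the start and from -1 before it. The Cyp2j5 window held AGGTCA at position -197 from the start and TATAAA on the opposite strand at -128. In the Cyp2j6 window stood GGGCGG at -66, CACGTG at -44, and AGAACA on the opposite strand at -193 and -24. The Cyp2j9 window matched none of the 7 motifs. In Ephx1 the matches were TATAAA at -214, AGAACA at -94, and GGGCGG at 2 and 17. Among 32851 RefSeq promoters of the same length, 8.30% held TTCNNNGAA, 13.6% TATAAA, 35.7% GGGCGG, 7.15% CACGTG, 16.3% AGGTCA, 19.0% AGAACA and 0.475% CAAAGTCCA. A match describes the letters only. For Cyp2u1 and Ephx2 no promoter is shown. The G and C content was 45.3% for Cyp2j5, 50.3% for Cyp2j6, 53.0% for Cyp2j9 and 54.3% for Ephx1, against a median of 52.7% over all these promoters.

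Cyp2u1 (chromosome 3, 130993409 to 131006145, build mm9, NM_027816) had the widest sex difference of the 6 genes. Its mean was 12.0 FPKM in males and 1.96 FPKM in females. The ratio in the authors' deposited table was 6.33 with an adjusted p of 4.92e-87. By that ratio it stood 62nd among the 829 genes higher in male liver. The means rest on an estimated 5710 reads in the male pools and 925 in the female pools. Its intronic mean was 0.665 FPKM in males and 0.130 FPKM in females, and the authors' deposited table gave a ratio of 5.52 with an adjusted p of 1.17e-27. Introns and gene body thus differed in the same direction and by similar folds. The next genes on either side were not higher in male liver. Hadh, a dehydrogenase of fatty acid oxidation 18.4 kb away, was lower in male liver, at 70.7 FPKM in males and 94.8 FPKM in females, with an adjusted p of 0.00142 in the authors' deposited table. Sgms2, a sphingomyelin synthase 15.8 kb away on the other side, had 4.48 FPKM in males and 5.11 FPKM in females and did not pass, with an adjusted p of 0.771 in the authors' deposited table.

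The levels of the 4 P450 genes, which are per length and can be set side by side, were ordered differently in each sex. In male liver Cyp2j5 was followed by Cyp2u1, Cyp2j6 and Cyp2j9. In female liver the order was Cyp2j5, Cyp2j6, Cyp2u1 and Cyp2j9, and the last pair, at 1.96 and 1.68 FPKM, was close. Whether neighbours in these orders differ beyond the spread of the pools was not tested, since that spread is not in the values used here. Cyp2j5 made up 80.7% of the summed FPKM of the 4 genes in males and 89.5% in females, and Cyp2u1 9.37% in males and 1.54% in females. The sum over the 4 genes was 127.9 FPKM in males and 126.9 FPKM in females.

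The hydrolases, which act on epoxides after the P450 enzymes have made them, were both higher in male liver. Ephx1 (chromosome 1, 182919687 to 182947626, build mm9, NM_010145) had a mean of 88.2 FPKM in males and 43.7 FPKM in females. The authors' deposited table gave a ratio of 2.09 with an adjusted p of 1.13e-22. The means in introns were 0.314 FPKM in males and 0.145 FPKM in females, and the authors' deposited table gave 2.39 with an adjusted p of 4.21e-07. An estimated 16701 reads in the male pools and 8201 in the female pools lie behind the gene body means. Of its neighbours, the RIKEN gene 9130409I23Rik, 33.7 kb away, was also higher in male liver, at 28.2 FPKM in males and 18.6 FPKM in females, with an adjusted p of 1.74e-06 in the authors' deposited table. Tmem63a, on the other side at 14.5 kb, had 3.14 FPKM in males and 3.40 FPKM in females and an adjusted p of 1 in the authors' deposited table.

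Ephx2 (chromosome 14, 66703209 to 66729497, the first of 3 listed locations, build mm9, NM_007940) had a mean of 105.2 FPKM in males and 66.7 FPKM in females. Its ratio in the authors' deposited table was 1.63 with an adjusted p of 1.05e-11. The intronic means were 0.540 FPKM in males and 0.287 FPKM in females, a ratio of 2.06 with an adjusted p of 2.85e-09 in the authors' deposited table. An estimated 23285 reads in the male pools and 14638 in the female pools stand behind the gene body means. Its neighbours were expressed at low levels: Adam2 had 0.0192 FPKM in males and 0.0137 FPKM in females and did not pass. The nicotinic receptor subunit Chrna2, 30.3 kb away, had 0.532 FPKM in males and 0.274 FPKM in females, a ratio of 2.06 with an adjusted p of 8.17e-05 in the authors' deposited table.

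Together the hydrolases summed to 193.3 FPKM in males and 110.4 FPKM in females. For each FPKM of the 4 P450 genes there were 1.51 FPKM of hydrolase RNA in males and 0.870 FPKM in females. This ratio leaves out the Cyp2c genes, several of which encode arachidonic acid epoxygenases in mouse. The 15 listed Cyp2c genes summed to 1222 FPKM in males and 1724 FPKM in females. The ratio is therefore not a balance of all epoxide-forming and epoxide-opening enzymes. In gene bodies the sums of the 4 P450 genes, most of which was Cyp2j5, were nearly the same, so the shift there lay in the hydrolase sums. In introns the sums of the 4 P450 genes also differed, at 1.51 FPKM in males and 0.940 FPKM in females. Within them Cyp2u1 had 0.665 FPKM in males and 0.130 FPKM in females. Intronic Cyp2j5 was nearly level, at 0.672 FPKM in males and 0.685 FPKM in females, and Cyp2j6 and Cyp2j9 were both under 0.1 FPKM. The intronic hydrolase sums were 0.854 FPKM in males and 0.431 FPKM in females. Ephx2 was the more abundant hydrolase in both sexes, at 54.4% of the gene body sum in males and 60.4% in females. These sums have no replicate error and were not tested.

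**Figure D3:**
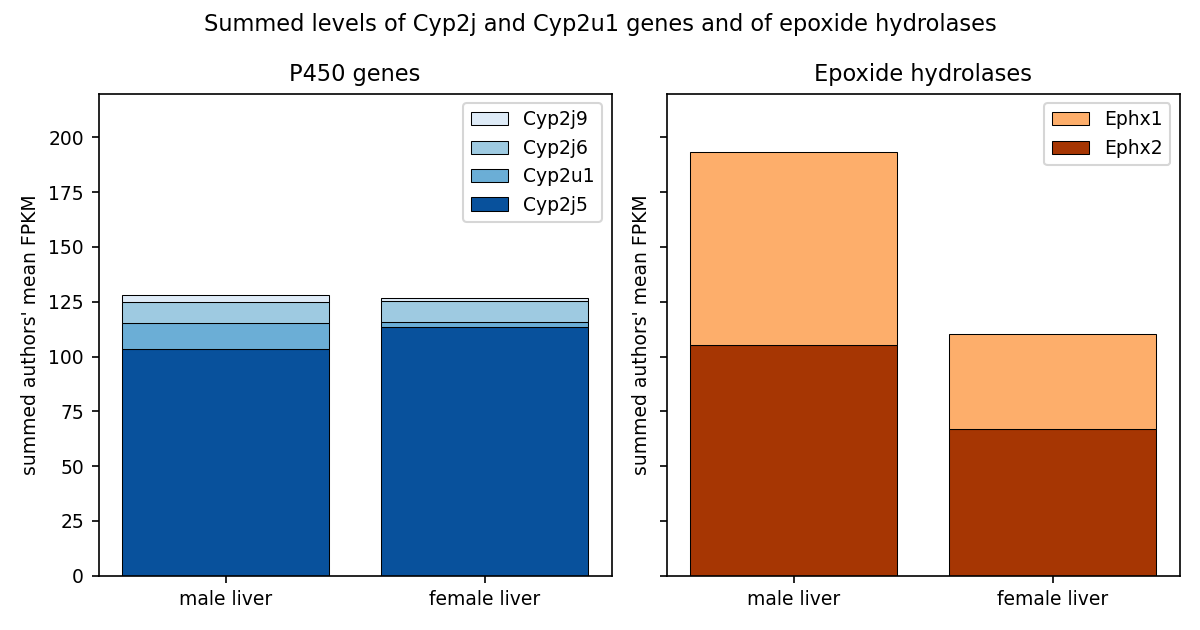
Stacked authors' gene body mean FPKM of the 4 P450 genes (left panel) and of the epoxide hydrolases (right panel), for male and then female liver in each panel. The P450 stacks reach 127.9 FPKM in males and 126.9 FPKM in females, and the hydrolase stacks 193.3 FPKM in males and 110.4 FPKM in females.

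The intronic columns come from the same libraries, so they are a second region of each gene and not a repeat of the experiment. Of 16569 genes with an intronic value above 0 in either sex, 3.16% passed the threshold in introns in either direction and 1.76% were higher in male liver. These shares cover genes of any intronic level, and no share among genes of a level near that of the 6 was taken. Again 4 of the 6 genes passed and all 4 were higher in male liver, namely Cyp2j9, Cyp2u1, Ephx1 and Ephx2. With a ratio of at least 2-fold they were Cyp2u1, Ephx1 and Ephx2, against 1.02% of all genes. The log2 ratios in gene body and introns were 2.66 and 2.46 for Cyp2u1, 0.94 and 0.88 for Cyp2j9, 1.07 and 1.26 for Ephx1, and 0.71 and 1.04 for Ephx2. Differences between the regions were not tested. Among 15640 genes above 0 in both regions, 409, or 2.62%, passed in both. Intronic FPKM was 5.55% of gene body FPKM for Cyp2u1 in males and 6.61% in females, and 3.17% in males and 3.48% in females for Cyp2j9. For the other 4 genes it was between 0.331% and 0.834% in either sex. The median over genes of at least 1 FPKM was 1.30% in males and 1.39% in females.

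**Figure D4:**
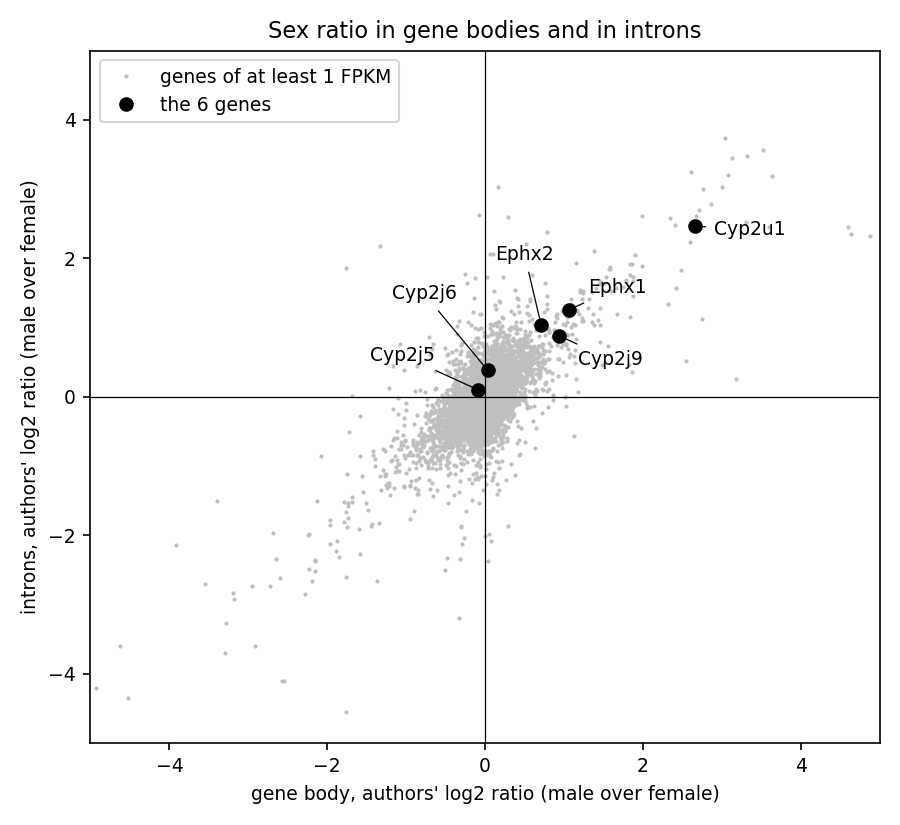
Authors' log2 ratio of male over female liver in gene bodies (horizontal) and in introns (vertical), with the 6 genes in black over the grey points of 8929 genes of at least 1 FPKM that have an intronic value in both sexes. Another 29 genes lie outside the axes, and Cyp2u1 stands apart from the other 5 genes at 2.66 and 2.46.

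Genes most like each of the 6 in level were found as the nearest in log2 FPKM over 4 values, the gene body and intronic means of either sex, among 9414 genes. The nearest to Cyp2j5 were Cyp2a12 and Rpl23, at distances of 0.210 and 0.217, and the nearest to Cyp2j6 were Cgrrf1 and Dnajb12, at 0.109 and 0.124. For Cyp2j9 they were Unc119 and Serpina9, at 0.198 and 0.219. The genes nearest to Cyp2u1 lay farther off: Tsku was at 0.954, with 7.24 FPKM in males and 2.59 FPKM in females, and Mup8 followed at 1.08. Ephx1 was nearest to Hao1 at 0.417 and Cyp4v3 at 0.583, and Ephx2 to Slco1a1 at 0.383 and Hbb-b1 at 0.603. With only 2 groups behind each region, such likeness is of level and sex ratio alone.

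Other genes that make, carry or compete for the same lipids were taken as fixed lists, and 57 of the 85 list genes found in the table reached 0.5 FPKM on average over the sexes. Cyp2j7 was listed too but not matched, and is not analysed here. A higher level in males was called for 13 of these and in females for 17, and 27 did not pass. Over all genes at that level, 6.68% were higher in males and 7.14% in females, and over all genes with a value above 0 in either sex 5.44% were higher in females. Their median log2 ratio was -0.05, beside 0.82 for the 6 genes, of which 4 passed, and 0.01 for all 10936 genes of that level. The Cyp2c genes, several of which encode arachidonic acid epoxygenases in mouse, included 8 of 13 measured genes that were higher in females and 2 that were higher in males. Cyp2c69 was at 2.10 FPKM in males and 204.8 FPKM in females, and Cyp2c67 at 142.2 FPKM in males and 29.5 FPKM in females. Cyp2c40 (13.1 FPKM in males and 132.9 FPKM in females) and Cyp2c37 (9.75 FPKM in males and 92.7 FPKM in females) were lower in males, while Cyp2c44 (40.4 FPKM in males and 37.7 FPKM in females) and Cyp2c70 (325.2 FPKM in males and 301.6 FPKM in females) did not pass. The most abundant of the Cyp2c genes, Cyp2c29, had 508.9 FPKM in males and 409.8 FPKM in females, with an adjusted p of 0.0186 in the authors' deposited table. Cyp2c genes are related in sequence, and how reads were split between them was not tested. Por, the reductase that passes electrons to every microsomal P450, was at 29.2 FPKM in males and 38.7 FPKM in females, with an adjusted p of 0.0140 in the authors' deposited table. The electron carriers Cyb5a, at 468.6 FPKM in males and 527.2 FPKM in females, and Cyb5r3, at 106.0 FPKM in males and 96.0 FPKM in females, did not pass. Of the remaining epoxide hydrolase family, Ephx3 and Ephx4 stayed under 0.1 FPKM in both sexes, and Mest, a related protein of less certain substrate, had 0.570 FPKM in males and 0.898 FPKM in females with an adjusted p of 0.0155 in the authors' deposited table.

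**Figure D5:**
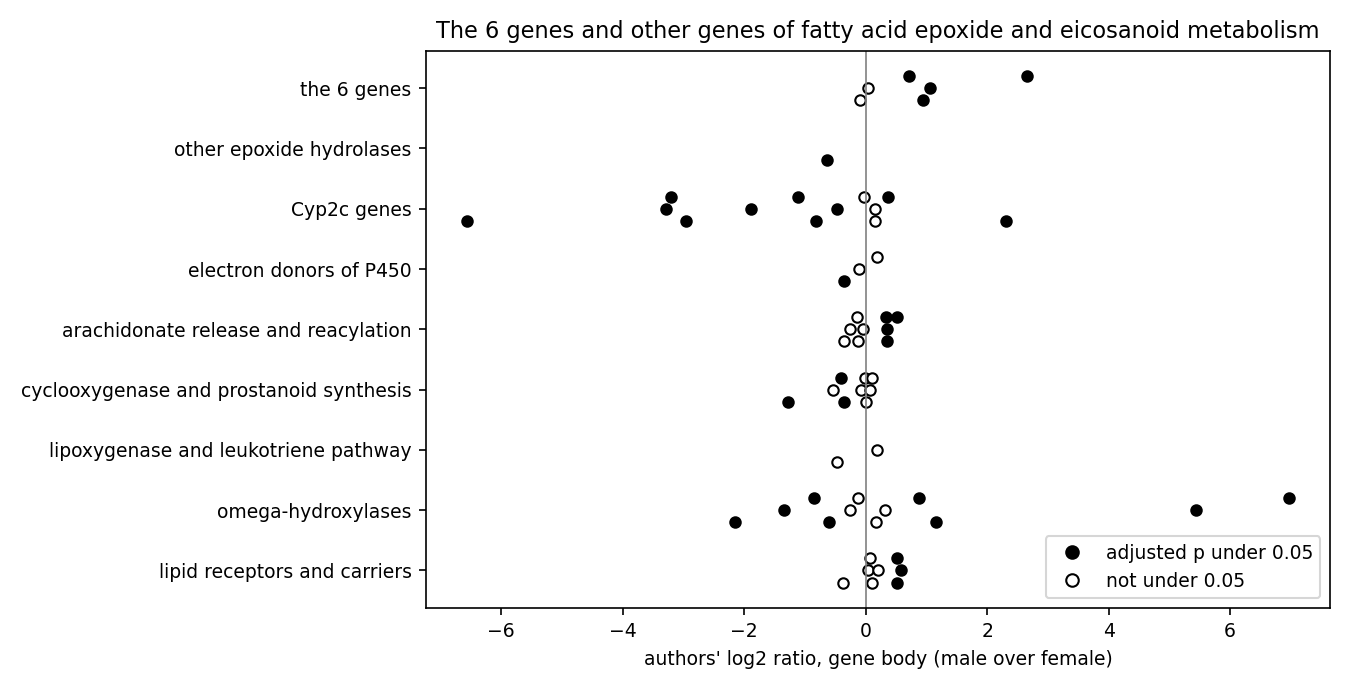
Authors' gene body log2 ratio of male over female liver for the 6 genes and for members of the other lists of 0.5 FPKM or more, filled where the authors' adjusted p was under 0.05. Of the 6 genes 4 lie to the right of 0 with filled symbols, while the Cyp2c genes and the omega-hydroxylases spread to both sides.

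The tissue label was checked against markers. All 7 hepatocyte markers were present, the lowest, Hnf4a, at 65.9 FPKM in males and 70.8 FPKM in females. They were higher in males for 2, Apoa1 and Serpina1a, lower for 2, Alb and Cps1, and not called for 3, and summed to 18913 FPKM in males and 24513 FPKM in females, with Alb alone at 12608 FPKM in males and 19411 FPKM in females. Markers of kidney, an organ rich in Cyp2j5, were listed at 0 for 5 of 5 genes in males and 4 of 5 in females. Over all genes averaging 0.5 FPKM or more, 6.68% were higher in males and 7.14% in females. Other cell types moved with sex: all 6 Kupffer cell and macrophage markers were lower in male liver, with a sum of 62.0 FPKM in males and 98.6 FPKM in females, and all 3 measured erythroid markers were higher, with a sum of 169.0 FPKM in males and 91.3 FPKM in females. None of 6 sinusoidal endothelial markers passed (45.3 FPKM summed in males and 53.7 FPKM in females). Of 5 measured stellate cell markers 2 were lower in males (7.35 FPKM in males and 9.48 FPKM in females, summed with Acta2, which lay under 0.5 FPKM), as was the 1 measured lymphocyte marker, Ptprc, and 1 of 3 measured cholangiocyte markers, Spp1, was higher. The 1 measured pancreas marker, Cela1, was present at 18.4 FPKM in males and 16.7 FPKM in females and did not pass. Of the pancreas markers under 0.5 FPKM, only Pnlip passed. It had 0.410 FPKM in males and 0.0309 FPKM in females, with an adjusted p of 0.0256 in the authors' deposited table. The 1 measured gut marker, Fabp2, also in the list of lipid carriers, was higher in males, while the other gut markers lay at or near 0. In bulk tissue fewer cells of a type and less RNA per cell cannot be told apart, and the part of these cell types in the values of the 6 genes was not tested. Library totals recovered from lone reads of small RNA genes ran from 28415535 to 42673908 reads in male pools. In female pools they ran from 28358105 to 41206357 reads.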

How the data were processed

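Poly-A selected, strand-specific RNA libraries were made from 3 male and 3 female liver pools, per the labels' protocols. Per the submitters' processing notes the tools included TopHat2, featureCounts and edgeR and the build was mm9, with no role, version or setting stated there. Per the file headers, the deposited table holds the authors' mean FPKM for each sex, a normalized male-to-female ratio, that ratio as a signed fold change (a score that is negative where female is higher), and an adjusted p-value, each for gene bodies and for introns. For genes of 1 FPKM or more this ratio exceeded the plain ratio of means by a median factor of 1.04. In addition, 929 genes were at 0 in the gene body but above 0 in introns, so gene body values do not hold all intronic reads.

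The tests planned for values per pool were not run, because only means per sex were used, and the authors' comparison is described in their place at an adjusted p under 0.05. The 6 genes, the 9 other gene lists, the 10 marker lists and the alternatives were chosen with earlier results of these data known. List members under 0.5 FPKM on average over the sexes were left out as not measured. Older symbols were matched through RefSeq. Named list genes were up to 3 per direction by ratio and up to 2 that did not pass by level, and not all of them are printed. Ephx3, Ephx4, Cyp2j7, the Cyp2j neighbours and the genes flanking each member were named by family or position, outside that rule. Hnf4a (the lowest hepatocyte marker), Acta2 and Pnlip were also named outside it. Likeness was the Euclidean distance of log2(FPKM + 0.1).

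Library totals were recovered from small RNA genes of 1 location whose mean equals a lone read in 1 pool, a step checked on made-up totals. Reads behind a mean were estimated from GENCODE M21 transcript lengths, as if the pools were alike. Starts were raised by 1 base to count from 1. Promoters came from RefSeq, which matched 4 of the 6 genes, and transcripts from GENCODE. Python 3.11.15, numpy 2.4.6, pandas 2.3.3, Biopython 1.88 and matplotlib 3.10.9 were used.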

Additional observations from a re-analysis of the deposited data

How the results depend on the processing

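The 4 genes higher in male liver kept that direction, in gene bodies and in introns, when ratios were recomputed from the means with a pseudocount of 0.01, 0.1 or 1, after quantile normalization, and after rescaling without the 50 most abundant genes, and all 4 also passed an adjusted p under 0.01 in both regions. With a 2-fold limit 2 of the 6 genes were counted in gene bodies, in place of 4, because Cyp2j9 and Ephx2 fall under it. Among values that did not pass, those of Cyp2j5 gene bodies and Cyp2j6 introns kept their direction under these 5 alternatives, and the others did not. The Cyp2j6 gene body log2 ratio was 0.03 from the authors and -0.018, -0.018 and -0.016 with pseudocounts of 0.01, 0.1 and 1, -0.0060 after quantile normalization and -0.012 after rescaling. For Cyp2j5 introns it was 0.10 from the authors and -0.028, -0.025 and -0.012 with those pseudocounts, but 0.09 after quantile normalization and also 0.09 after rescaling. A pseudocount of 1 exceeds every intronic level of the 6 genes and shrinks the intronic log2 ratio of Cyp2u1 to 0.56 and that of Cyp2j9 to 0.05. Among the other lipid genes, 4 in place of 13 were higher in males and 9 in place of 17 in females with the 2-fold limit, while 10 were higher in males and 11 in females at an adjusted p under 0.01; the stricter limits set these counts. No paired analysis was possible because the values are means per sex, and for the same reason DESeq2 and leaving out each pool were not run. Depth limits low values such as those of Cyp2j8, Cyp2j11, Ephx3 and Ephx4, for which reads were not estimated.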

Other observations

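Over all genes averaging 0.5 FPKM or more, 6.68% were higher in males and 7.14% in females, shares to set beside each list below. Omega-hydroxylases, which oxidise the end of fatty acid chains, differed in both directions. Of 12 measured genes, 4 were higher in males and 4 in females. Cyp4a12a was at 103.0 FPKM in males and 2.45 FPKM in females, and Cyp4a10 at 11.9 FPKM in males and 55.0 FPKM in females. Cyp4a12b had 9.01 FPKM in males and 0.0704 FPKM in females, and Cyp4a14 9.67 FPKM in males and 25.4 FPKM in females. Cyp4a genes are related in sequence, and how reads were split between them was not tested. Cyp4f14, at 63.0 FPKM in males and 78.5 FPKM in females, did not pass. Of 9 measured genes of cyclooxygenase and prostanoid metabolism 3 passed, and all 3 were higher in females. Ptgds, a prostaglandin D synthase, had 4.03 FPKM in males and 10.1 FPKM in females, with an adjusted p of 8.77e-11 in the authors' deposited table. The others were Ptgs1, a cyclooxygenase, at 2.30 FPKM in males and 3.19 FPKM in females, and Hpgd, which inactivates prostaglandins, at 32.0 FPKM in males and 42.4 FPKM in females. Neither measured gene of the leukotriene branch, Lta4h or Alox5ap, passed.

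Genes that release or re-esterify arachidonic acid included 4 of 9 measured members that were higher in males, by 1.26 to 1.43-fold in the authors' deposited table. The share higher in males over all genes averaging 0.5 FPKM or more was 6.68%. Acsl1, an acyl-CoA synthetase, had 139.1 FPKM in males and 101.1 FPKM in females, with an adjusted p of 2.81e-06 in the authors' deposited table, and Pla2g6, a phospholipase, 5.11 FPKM in males and 4.17 FPKM in females. Lipid receptors and carriers were higher in males for 3 of 8 measured genes, all fatty acid binding proteins. Fabp4, a further binding protein, had 5.05 FPKM in males and 5.11 FPKM in females and did not pass. Fabp1 had 2981 FPKM in males and 2168 FPKM in females, with an adjusted p of 2.88e-05 in the authors' deposited table, Fabp2 had 30.6 FPKM in males and 22.1 FPKM in females, and Fabp5 48.9 FPKM in males and 33.8 FPKM in females. The fatty acid receptor Ppara, at 15.2 FPKM in males and 13.7 FPKM in females, did not pass in gene bodies and was 1.51 times higher in male introns, with an adjusted p of 0.0177 in the authors' deposited table.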
